A study of Mus musculus with 6 samples.

Results

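The VEGF system was described in 4T1 cells as 10 genes chosen by name: the ligands Vegfa, Vegfb, Vegfc, Vegfd and Pgf, the receptors Flt1, Kdr and Flt4, and the neuropilins Nrp1 and Nrp2. All 10 were found among the 53465 gene identifiers for which estimated counts were deposited. 4T1 is a mouse mammary carcinoma line. The parental line (P) was compared with an axitinib-resistant line (AxR), with 3 poly(A)-selected, stranded RNA-seq libraries per line. 4T1 AxR cells were derived from spontaneous metastatic lesions in Balb/c mice. These mice received axitinib at 100 mg/kg/day before and after removal of the primary tumor. The cells were then kept in culture with 0.5 μM axitinib for more than 2 months. The methods name lung or lymph node as the source of such lesions, and neither they nor the labels say whether the line is 1 clone. The treatment labels give axitinib for AxR samples alone, while the growth label names 0.5 μM for all 6 samples. Axitinib in the medium, passage through the animal and culture history therefore cannot be told apart from the line itself. Whether replicates are separate cultures is not stated, so p-values measure the spread between these libraries, which may be technical.

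VEGF ligands are secreted dimers that bind receptor tyrosine kinases on endothelial cells and drive the growth of blood and lymphatic vessels. Kdr encodes the main signalling receptor for Vegfa in blood vessels, Flt1 encodes a receptor with high affinity and weak kinase activity that also exists in a soluble, ligand-trapping form, and Flt4 encodes the receptor for Vegfc and Vegfd in lymphatic vessels. Neuropilins are co-receptors with short intracellular parts that bind both VEGF ligands and class 3 semaphorins. Axitinib blocks the kinases of the 3 receptors. Tumor cells are a common source of the ligands and often express neuropilins.

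The libraries held between 15495260 and 17294525 estimated counts. Levels are given as CPM, the usual per-library scaling of counts, here to the library size after upper quartile normalization, and, where genes are compared with each other, as TPM, counts per length of the merged exons scaled to the same total in every library. Both lines expressed the epithelial genes Epcam, Cdh1, Krt7, Krt8 and Krt18, each with at least 1171 counts in every library, and 9 of 10 mammary epithelial markers were tested, the exception being Krt5, which had no count. Of the 9, 6 were higher in AxR cells and 3 lower, namely Cldn7 (8.22 ± 1.18 CPM in P and 0.751 ± 0.108 CPM in AxR cells; SD, n = 3 each), Krt19 (log2 fold change -1.31) and Cldn4 (-0.17), while Krt14 was higher (2.45). The summed level of the 10 was 2139 to 2359 CPM in P and 3218 to 3396 CPM in AxR libraries, and the part of this shift in the VEGF genes was not tested. Of 15 vascular endothelial markers, 13 were too low to test and had at most 9 counts in any library, among them Pecam1 and Cdh5, and Cldn5, Emcn, Erg and Sox17 had no count. The summed level of the 15 was 68.5 to 74.3 CPM in P and 72.0 to 74.9 CPM in AxR libraries, most of it from Eng, which is also expressed outside endothelium and had 64.0 ± 2.52 CPM in P against 68.9 ± 1.83 CPM in AxR cells (SD, n = 3 each; adjusted p = 0.107 by edgeR). The other marker tested, Egfl7, was lower in AxR cells, at 5.82 ± 0.330 CPM in P against 3.51 ± 0.438 CPM (SD, n = 3 each; log2 fold change -0.73, adjusted p = 0.000604 by edgeR). Of the 4 lymphatic endothelial markers none exceeded 1 count.

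Of the 10 genes, 7 had enough counts to be tested by edgeR's quasi-likelihood test. Vegfa and Vegfb were higher in AxR cells, and Vegfc, Pgf, Flt1, Nrp1 and Nrp2 were lower (adjusted p under 0.05). In such bulk samples fewer cells that express a gene and less RNA per cell cannot be told apart. The lines differed widely, since 63.5% of the 13550 genes tested passed this threshold, 32.8% higher and 30.8% lower, so a call alone sets these genes apart little. The size of the changes varied more. The fall of Pgf was the 69th and that of Flt1 the 114th lowest log2 fold change of the 13550, whereas 77.8% of genes had an absolute log2 fold change at least as large as that of Nrp2. The place of Pgf is uncertain, since it had at most 2 counts in any AxR library. For all 7 genes the 3 P libraries did not overlap the 3 AxR libraries, as was the case for 68.3% of the genes tested. The other 3 members, Vegfd, Kdr and Flt4, did not pass the filter on low counts.

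**Figure D1:**
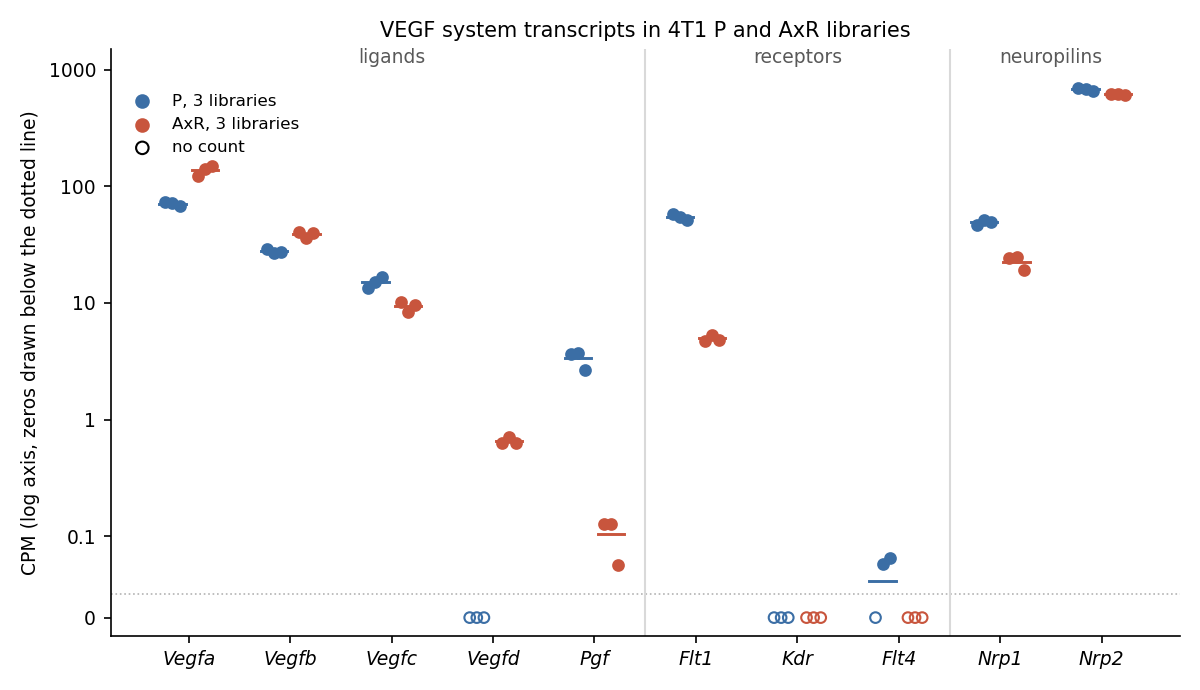
CPM of the 10 genes on a log axis in each of the 3 P (blue) and 3 AxR (red) libraries, with the mean of each line as a bar and open circles for libraries without a count. Flt1 fell from 51.3 to 58.0 CPM in P libraries to 4.76 to 5.29 CPM in AxR libraries, while Vegfa rose and Nrp2 was the highest of the 10 in every library.

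Per length of the merged exons, Nrp2 was the most abundant of the 10 transcripts in both lines, with 183 to 199 TPM in P and 161 to 174 TPM in AxR libraries. In P cells Vegfb (55.9 to 61.5 TPM) and Vegfa (51.8 to 58.1 TPM) followed, and their libraries overlapped. Vegfc (18.7 to 22.3 TPM), Nrp1 (16.2 to 17.9 TPM), Flt1 (12.5 to 14.7 TPM) and Pgf (3.02 to 4.38 TPM) came next, each above the following in every library. In AxR cells Vegfa (88.9 to 118 TPM) was above Vegfb (72.4 to 83.5 TPM) in every library, and Flt1 was at 1.09 to 1.26 TPM, just above Vegfd. This order depends on the length used. The merged exons of Flt1 (13504 bases) and Nrp1 (9785 bases), for example, are longer than any single transcript of these genes (at most 6895 and 3645 bases). With the longest transcript as the length, mean levels in P cells were 35.5 TPM for Nrp1, 20.8 TPM for Flt1 and 16.2 TPM for Vegfc. The mean transcript length changed the top of the order as well. With it, AxR cells had 167 ± 21.2 TPM of Vegfa and 161.5 ± 4.45 TPM of Nrp2 (SD, n = 3 each). P cells then had 88.3 ± 5.08 TPM of Vegfa and 43.8 ± 2.26 TPM of Vegfb (SD, n = 3 each).

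Flt1 was the only receptor gene of the 3 with more than 1 count in any library, and it fell 11.0-fold in AxR cells. Flt1 (ENSMUSG00000029648.13) spans bases 147561604 to 147726011 of chromosome 5 (GRCm38, as for all positions given here), minus strand. Its estimated counts were 954, 948 and 787 in P replicates 1 to 3 and 75, 83 and 85 in AxR replicates 1 to 3. Even the lowest P library was thus far above the highest AxR library, and the spread within each line was small. In CPM the means were 54.7 ± 3.34 (SD, n = 3) in P and 4.96 ± 0.287 (SD, n = 3) in AxR cells, with a log2 fold change of -3.46 (95% confidence interval -3.65 to -3.27, adjusted p = 2.42e-13 by edgeR's quasi-likelihood test). Leaving out any 1 library gave values from -3.51 to -3.41. Among the endothelial markers, Egfl7 was lower in AxR cells as given above. Cdh5 had 0.327 ± 0.0973 CPM in P against 0.0190 ± 0.0328 CPM in AxR cells and Pecam1 0.137 ± 0.184 against 0.0213 ± 0.0368 CPM (SD, n = 3 each). Mmrn2 and Tie1 also had lower means in AxR cells. Ecscr had 0.0840 ± 0.0729 CPM in P against 0.413 ± 0.146 CPM in AxR cells and Vwf 0.0192 ± 0.0333 against 0.203 ± 0.0212 CPM (SD, n = 3 each). Higher AxR means were also seen for Eng and for Esam, Plvap and Tek, the last with at most 4, 4 and 2 counts in any library. The sum of all 15 overlapped between the lines. The part of endothelial cells in the Flt1 level was not tested. The deposited values are sums per gene, so full-length and soluble Flt1 transcripts were not separated.

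The proximal promoter of Flt1 is printed because this gene changed most among the receptors and because RefSeq and GENCODE place its start at the same base. The 250 bases before the RefSeq start are at chr5:147726012-147726261 (GRCm38.p6, minus strand) and are shown 5′ to 3′ in the direction of the gene. The corresponding bases of Vegfa, the most abundant ligand transcript in AxR cells, are at chr17:46032378-46032627 (minus strand) and serve as a contrast. Capitals mark matches, on either strand, to a cAMP response element (TGACGTCA), an ETS core (GGAAG), a hypoxia response core (ACGTG or GCGTG) and a TATA box (TATAAA). Matches to a GC box (GGGCGG) were counted and left in lower case.
Flt1: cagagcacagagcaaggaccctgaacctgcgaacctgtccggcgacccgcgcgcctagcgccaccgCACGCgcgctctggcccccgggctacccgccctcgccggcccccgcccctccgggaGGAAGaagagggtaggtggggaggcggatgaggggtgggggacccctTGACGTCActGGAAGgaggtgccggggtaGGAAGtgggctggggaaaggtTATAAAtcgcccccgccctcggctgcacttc
Vegfa: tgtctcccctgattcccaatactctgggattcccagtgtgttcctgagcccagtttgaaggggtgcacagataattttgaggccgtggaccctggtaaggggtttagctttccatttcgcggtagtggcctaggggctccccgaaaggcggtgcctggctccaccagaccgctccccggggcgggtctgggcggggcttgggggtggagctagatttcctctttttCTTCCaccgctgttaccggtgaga
The Flt1 window held the cAMP response element at -81, ETS cores at -128, -71 and -52, a hypoxia response core at -184 and a TATA box at -31, counted to the first base of the match with -1 as the base before the start, and these did not overlap. The Vegfa window held 1 ETS core, at -24, and none of the other 3 marked motifs. Another RefSeq start of Vegfa, at base 46025163, lies inside the gene, whose GENCODE start is base 46032369. Its window, not printed, held hypoxia response cores at -218 and -211 and an ETS core at -10. That window also lies inside the gene, so these matches are not upstream of the GENCODE start. Of 32851 RefSeq windows of this length, 1.55% held the cAMP response element, 64.1% an ETS core, 38.6% a hypoxia response core, 12.4% a TATA box and 32.7% a GC box. Among the 10 genes, with the first window listed for each, the cAMP response element was found in 1, Flt1, the ETS core in 6, the hypoxia response core in 6, the TATA box in 2 and the GC box in 9. No binding was measured, and a match describes the letters alone.

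Transcripts of the other 2 VEGF receptors were at or under the limit of detection. Kdr (ENSMUSG00000062960.10, chromosome 5 from 75932827 to 75978458, minus strand) had no count in any library, so that its level could be at most 0.0611 CPM over the P and 0.0612 CPM over the AxR libraries, for counting error only. Flt4 (ENSMUSG00000020357.3, chromosome 11 from 49609263 to 49652739, plus strand) had 1 count in each of P replicates 2 and 3 and none in the other 4 libraries. A difference in Kdr or Flt4 between the lines was therefore not detectable at this depth.

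The ligand Vegfa, the main driver of blood vessel growth, rose 1.94-fold in AxR cells. Vegfa (ENSMUSG00000023951.17) lies on chromosome 17 from 46016993 to 46032369, on the minus strand. It had 72.9, 72.5 and 67.7 CPM in the P libraries and 124, 141 and 150 CPM in the AxR libraries. The AxR libraries were all above the P libraries but spread more widely than they did. Means were 71.0 ± 2.91 CPM in P and 138 ± 13.2 CPM in AxR cells (SD, n = 3 each), and the log2 fold change was 0.96 (95% confidence interval 0.81 to 1.10, adjusted p = 1.26e-08 by edgeR). Isoforms of Vegfa, which differ in how they bind heparan sulfate and neuropilins, were not separated. Vegfb (ENSMUSG00000024962.13, chromosome 19 from 6982473 to 6987651, minus strand), a ligand of Flt1, rose less than Vegfa. It had 28.9, 26.7 and 27.4 CPM in P and 40.3, 36.2 and 39.9 CPM in AxR libraries. Its log2 fold change was 0.49 (95% confidence interval 0.33 to 0.64, adjusted p = 2.61e-05 by edgeR), and no P library reached the lowest AxR library.

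Vegfc and Pgf fell in AxR cells and Vegfd was counted in AxR cells alone. Vegfc (ENSMUSG00000031520.6, chromosome 8 from 54077606 to 54187096, plus strand), a ligand of Flt4, had 13.4, 15.2 and 16.6 CPM in P and 10.3, 8.29 and 9.61 CPM in AxR libraries. The lowest P library was above the highest AxR library. Its log2 fold change was -0.68 (95% confidence interval -0.92 to -0.44, adjusted p = 7.93e-05 by edgeR). Pgf (ENSMUSG00000004791.7, chromosome 12 from 85166635 to 85177790, minus strand), which encodes placental growth factor, a ligand of Flt1 that does not bind Kdr, had 60, 65 and 41 counts in P libraries and 2, 2 and 1 in AxR libraries. Pgf was thus close to lost in AxR cells. Over the summed counts of each line, 166 against 5, the level in P was 33.1 times that in AxR cells (exact 95% counting interval 13.9 to 103), and the adjusted p was 3.34e-08 by edgeR. Vegfd (ENSMUSG00000031380.10, chromosome X from 164373378 to 164402650, plus strand), the other ligand of Flt4, had no count in P libraries and 10, 11 and 11 counts in AxR libraries. A count of 0 was taken to allow at most 3 counts over the P libraries. The observed AxR level of Vegfd was 10.7 times that limit. This ratio leaves out the counting error of the 32 AxR counts and the spread between libraries. The mean of Vegfd in AxR cells, 0.654 ± 0.0413 CPM (SD, n = 3), was low, and it missed the filter. When every gene with a count was tested, its adjusted p was 8.81e-08 by edgeR. That fit is not comparable with the main fit, since the adjusted p of Flt1 was 2.58e-274 in it against 2.42e-13 by edgeR. In the 6 alternatives that tested Vegfd the adjusted p was between 8.81e-08 and 0.000426. Vegfd could be tested there through its AxR counts alone, so these values add no support beyond the counts.

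The make-up of the ligand transcripts shifted toward Vegfa. Each ligand was expressed as a percentage of the summed TPM of all 5, a share within a library that does not depend on normalization between libraries. Vegfa made up 40.7%, 41.2% and 38.9% in the P libraries and 49.4%, 55.6% and 54.6% in the AxR libraries. Its mean share was 40.3% ± 1.20 (SD, n = 3) in P and 53.2% ± 3.33 (SD, n = 3) in AxR cells. Vegfc made up 13.1%, 15.2% and 16.7% in the P libraries and 7.18%, 5.73% and 6.13% in the AxR libraries, so its share was smaller in every AxR library. The share of Pgf was 2.81% ± 0.472 in P and 0.0599% ± 0.0254 in AxR cells (SD, n = 3 each). Vegfd made up 0.45% ± 0.043 (SD, n = 3) in AxR cells. For these 4 ligands the lines did not overlap, and the exact two-sided permutation p was 0.1, the smallest that 3 libraries against 3 allow, or 0.125 after Benjamini-Hochberg adjustment over the 5 ligands. The share of Vegfb was 41.9% ± 1.33 in P and 39.9% ± 2.58 in AxR cells (SD, n = 3 each), and here the lines overlapped (exact permutation p = 0.3). With the mean transcript length in place of merged exons, Vegfa made up 56.8% in P and 69.7% in AxR cells, and the difference, 12.9 percentage points, was the same. The summed ligand level was 138 ± 4.88 TPM in P and 195 ± 18.2 TPM in AxR cells (SD, n = 3 each), without overlap.

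**Figure D2:**
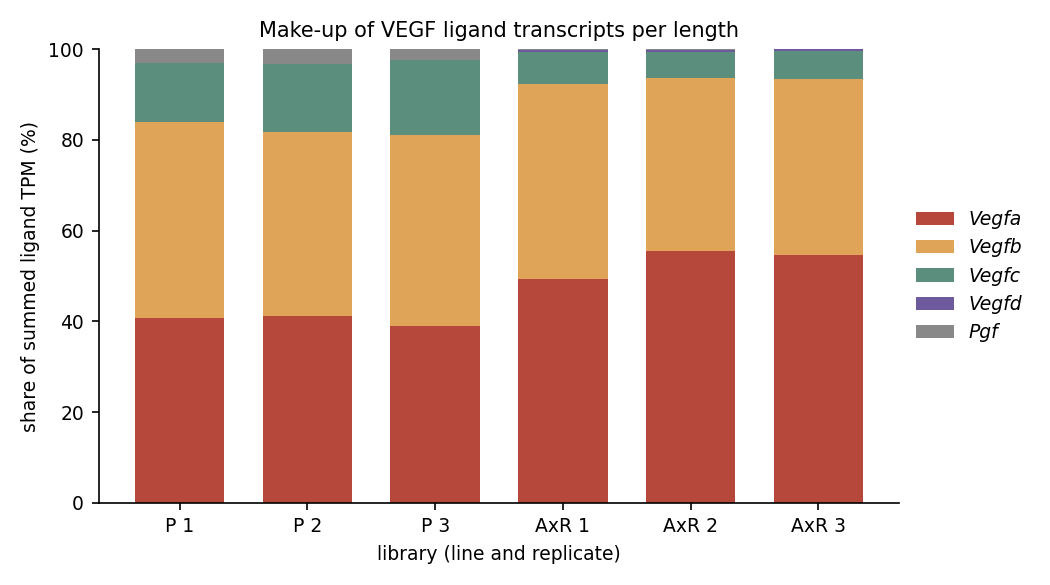
Share of each VEGF ligand in the summed ligand TPM, in percent, for each of the 6 libraries. The Vegfa part is 38.9% to 41.2% in P and 49.4% to 55.6% in AxR libraries, and the Vegfc and Pgf parts are smaller in AxR libraries.

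Since Flt1 fell while Vegfa and Vegfb rose, the receptor transcript was set against those of its own ligands within each library. The log2 ratio of Flt1 to the sum of Vegfa, Vegfb and Pgf, in TPM, was -3.11 ± 0.0369 (SD, n = 3) in P and -7.26 ± 0.120 (SD, n = 3) in AxR cells. The difference, -4.15 on the log2 scale, was between -4.24 and -4.14 with the other lengths and between -4.21 and -4.09 with each library left out. The libraries of the lines did not overlap (exact two-sided permutation p = 0.1).

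Both neuropilin genes were lower in AxR cells, Nrp1 2.18-fold and Nrp2 1.10-fold. Nrp1 (ENSMUSG00000025810.9, chromosome 8 from 128358604 to 128503363, plus strand), a co-receptor for Vegfa and semaphorins, had 46.6, 51.7 and 49.7 CPM in P and 24.1, 24.7 and 19.1 CPM in AxR libraries. Its log2 fold change was -1.13 (95% confidence interval -1.32 to -0.94, adjusted p = 4.72e-08 by edgeR). Nrp2 (ENSMUSG00000025969.15, chromosome 1 from 62703285 to 62818695, plus strand), a co-receptor for Vegfc and semaphorins, had 692, 689 and 661 CPM in P and 620, 618 and 614 CPM in AxR libraries. The AxR libraries were below the P libraries by little, with a log2 fold change of -0.14 (95% confidence interval -0.23 to -0.05, adjusted p = 0.0106 by edgeR). This call was lost without P replicate 1 (log2 fold change -0.13, adjusted p = 0.0580 by edgeR), and over all alternatives its adjusted p lay between 0.00219 and 0.0580. The median of the 811 tested genes of chromosome 1 was -0.29, below the value of Nrp2. Nrp1 made up 8.07% ± 0.461 of the summed neuropilin TPM in P and 4.25% ± 0.537 in AxR cells (SD, n = 3 each; exact two-sided permutation p = 0.1), so Nrp2 was by far the larger part in both lines. With the longest transcript as the length, these shares were 11.8% and 6.33%.

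**Figure D3:**
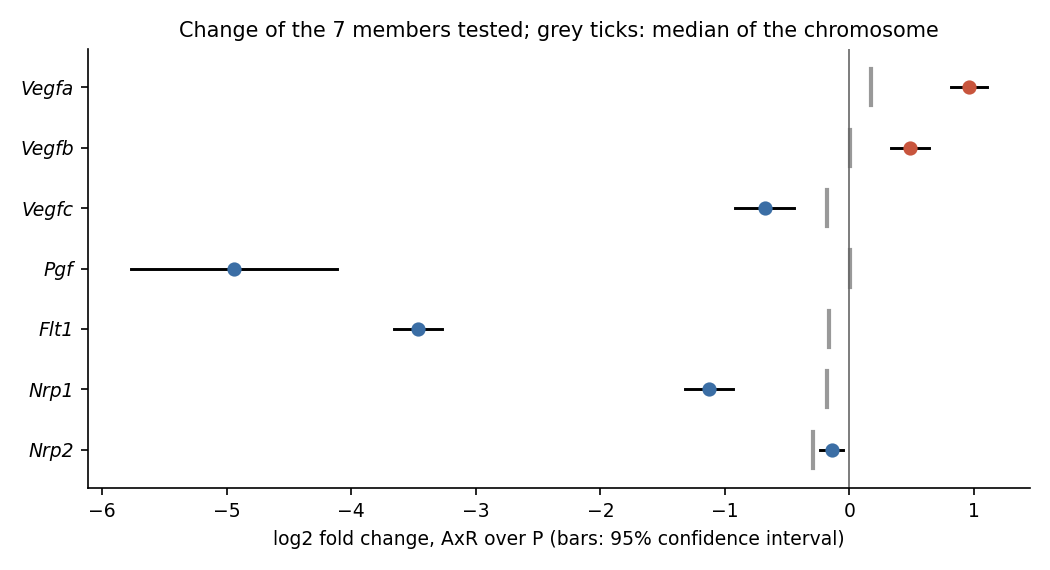
Log2 fold change of the 7 genes tested (points) with 95% confidence intervals (bars) from edgeR, and the median log2 fold change of all tested genes on the same chromosome (grey ticks). Pgf, Flt1 and Nrp1 lie far below their chromosomes, and Nrp2 lies between 0 and the median of chromosome 1.

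Whole chromosomes differed between the lines, so each gene was also set beside its neighbors. The 20 tested genes around Flt1, 10 on each side, had a median log2 fold change of -0.22, with Lnx2 the lowest, and the nearest on either side, Pan3 and Pomp, had values of -0.42 and 0.03. Around Pgf the median was 0.07 and the range -0.79 to 0.84. Around Nrp1 14 tested genes had a median of -0.12, and Itgb1, the next tested gene on one side, was the lowest at -0.41. Vegfa lay among genes that were higher as a group, with a median of 0.36 and a highest value of 0.85 for Polh, and chromosome 17 as a whole had a median of 0.18. The values of Flt1, Pgf and Nrp1 were thus below, and that of Vegfa above, those of every neighbor counted. Those of Vegfb, Vegfc and Nrp2 lay within the range of their tested neighbors. These ranges were -0.70 to 0.62 around Vegfb (0.49), -1.05 to 0.68 around Vegfc (-0.68) and -1.28 to 0.49 around Nrp2 (-0.14).

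**Figure D4:**
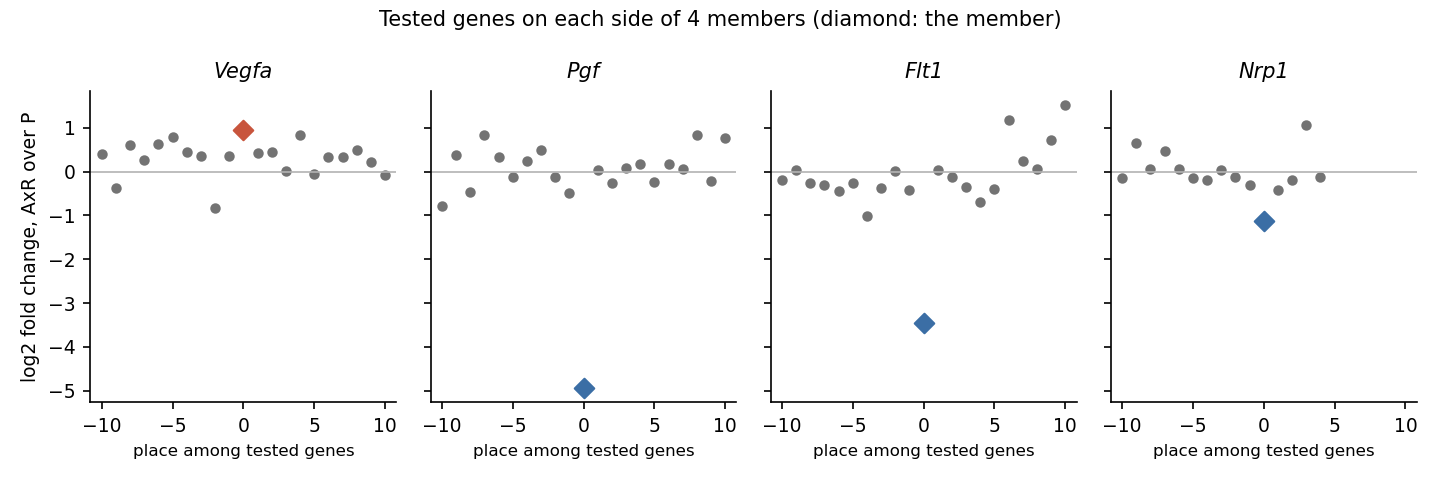
Log2 fold change of Vegfa, Pgf, Flt1 and Nrp1 (diamonds) and of up to 10 tested genes on each side (grey points), placed in their order along the chromosome. Each of the 4 genes lies outside the range of its neighbors, with Flt1 at -3.46, Pgf at -4.94, Nrp1 at -1.13 and Vegfa at 0.96.

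**Figure D5:**
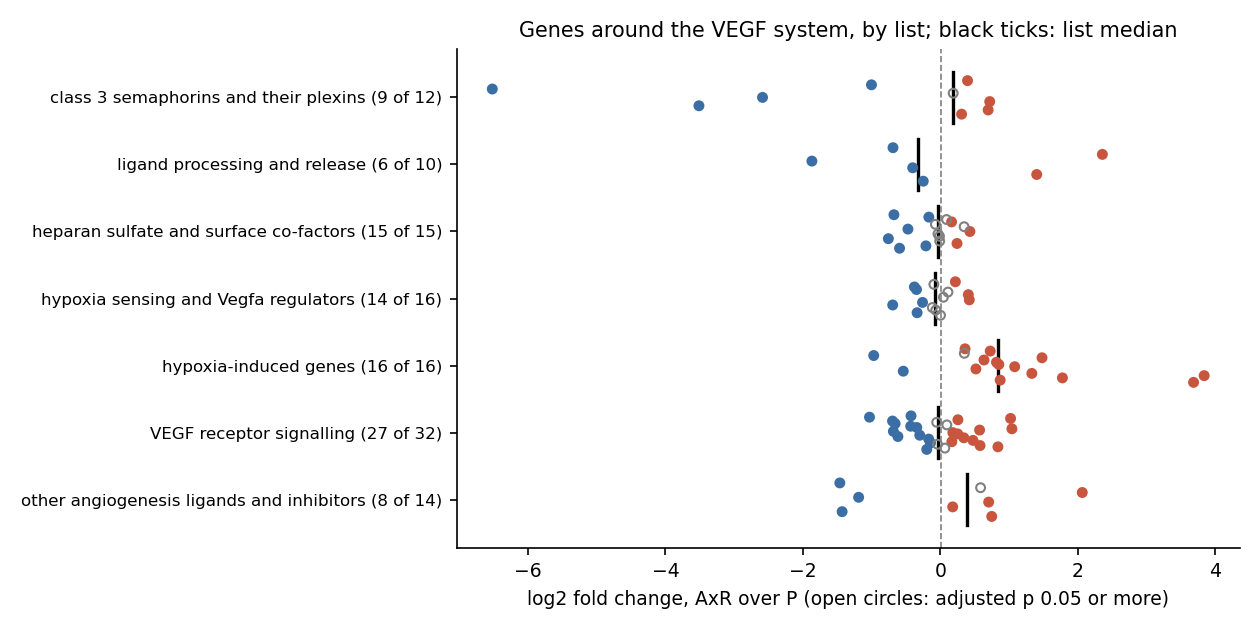
Log2 fold change of the tested genes of 7 lists around the VEGF system, with genes past an adjusted p of 0.05 filled in red (higher in AxR) or blue (lower) and list medians as black ticks. The numbers after each name are genes tested of genes listed, and the dashed line is the median of all tested genes.

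Most class 3 semaphorins bind neuropilins, where they can compete with VEGF ligands, and plexins carry the signal of the class. Of 12 such genes 9 were tested, of which 4 rose and 4 fell, with a median log2 fold change of 0.19 against 0.0058 for all tested genes. Here and for the lists that follow, the counts are to be read beside the 32.8% of all tested genes that rose and the 30.8% that fell. Plxnd1 and Plxna3 rose by 0.72 and 0.69 on the log2 scale (adjusted p = 1.18e-06 and 2.79e-05 by edgeR). Plxna4 fell by 3.51, from 12.4 ± 0.655 to 1.09 ± 0.216 CPM (SD, n = 3 each), and Sema3e, which signals through Plxnd1, fell from 104 ± 6.47 to 52.0 ± 1.33 CPM (SD, n = 3 each). Sema3c, named after its values were seen, had no count in AxR libraries and 0.692 ± 0.0851 CPM (SD, n = 3) in P.

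Of 10 genes that process or release VEGF ligands 6 were tested, of which 2 rose and 4 fell, with a median log2 fold change of -0.33. Pcsk6, a proprotein convertase, and Ctsd, a lysosomal protease, rose, from 5.48 ± 0.209 to 28.1 ± 1.69 CPM and from 136 ± 1.39 to 359 ± 20.7 CPM (SD, n = 3 each; adjusted p = 2.04e-11 and 8.84e-12 by edgeR). Mmp9, a gelatinase that frees matrix-bound Vegfa, fell by 1.87, from 82.7 ± 1.18 to 22.7 ± 0.558 CPM (SD, n = 3 each), and the convertase Pcsk7 fell by 0.69. Adamts3, the protease that activates Vegfc, had at most 1 count in a library, although its partner Ccbe1 had at least 2981.
Heparan sulfate chains hold Vegfa at the cell surface. Of 15 genes for these chains and for surface co-factors, all were tested, 3 rose and 6 fell, and the median was -0.03. The sulfotransferase Hs6st1 and the chain polymerase Ext2 rose by 0.43 and 0.24 on the log2 scale, and the epimerase Glce and the core protein Sdc4 fell by 0.76 and 0.68 (adjusted p at most 0.00103 by edgeR for each).

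Hypoxia raises Vegfa through hypoxia-inducible factors. In AxR cells most of the listed hypoxia-induced genes were higher, as was Vegfa, and a link between them was not tested. Of 16 hypoxia-induced genes, all tested, 13 rose and 2 fell, with a median log2 fold change of 0.83, where 32.8% of all genes rose. Car9, a carbonic anhydrase, had 6.06 ± 1.42 CPM in P cells and rose by 3.84 on the log2 scale, to 86.1 ± 9.69 CPM in AxR cells (SD, n = 3 each; adjusted p = 3.14e-10 by edgeR). Adm, which encodes the vessel-active peptide adrenomedullin, rose from 0.415 ± 0.206 to 5.33 ± 0.0854 CPM (SD, n = 3 each). The exceptions were Pfkfb3 and Egln3, which fell by 0.97 and 0.54 on the log2 scale, and Pfkfb4, at 0.35 (adjusted p = 0.200 by edgeR), did not pass.
Of 16 genes that sense oxygen or act on Vegfa transcription and mRNA stability, 14 were tested, 3 rose and 5 fell, with a median of -0.08. Hif1a, the oxygen-regulated subunit of the factor, and Hnrnpl rose by 0.42 and 0.41 on the log2 scale. Ets1, a transcription factor of vessel genes, and Vhl, which marks Hif1a protein for degradation, fell by 0.69 and 0.38 (adjusted p at most 0.000310 by edgeR for each of the 4). Epas1, which encodes the second hypoxia-inducible subunit, had no count in any library. Oxygen was not measured.

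Of 32 genes that act downstream of VEGF receptors in endothelium 27 were tested, 11 rose and 12 fell, with a median of -0.04, where 63.5% of all tested genes were called in either direction. Prkcd and Sphk1 rose by 1.04 and 1.02 on the log2 scale, to 125 ± 4.93 and 52.7 ± 5.50 CPM (SD, n = 3 each), and Src and the adaptor Shb fell by 1.03 and 0.70 (adjusted p at most 1.50e-05 by edgeR for each of the 4). Among 14 other secreted regulators of vessel growth 8 were tested, 4 rose and 3 fell, with a median of 0.38. Thbs1, which encodes the angiogenesis inhibitor thrombospondin, had 207 ± 15.7 CPM in P and 863 ± 97.2 CPM in AxR cells (SD, n = 3 each). Col18a1, the source of endostatin, rose by 0.18 on the log2 scale. Apln, the ligand of the apelin receptor, fell from 79.7 ± 1.76 to 29.6 ± 2.91 CPM (SD, n = 3 each). Vash2, related to the inhibitor vasohibin, fell by 1.46 on the log2 scale (adjusted p at most 0.00282 by edgeR for each of the 4).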

How the data were processed

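RNA from 3 P and 3 AxR libraries was analysed. Per the labels and methods, the authors checked reads with FastQC 0.11.5, aligned them to GRCm38 with STAR 2.6.0a and GENCODE M16, and quantified them with RSEM 1.3.1. The authors deposited its estimated counts as they were before filtering and normalization. RSEM divides shared reads among genes by likelihood. A strand setting is not given in the sources used here. No other gene with a count shared exon bases with a member. Samples were grouped by title.

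Estimated counts were rounded, filtered with filterByExpr, scaled by upper quartile, as the authors did, and compared in edgeR 4.0.16 (R 4.3.3; robust quasi-likelihood fit), with the line as the only term and Benjamini-Hochberg adjustment over 13550 genes at a threshold of 0.05. Symbols, positions and lengths came from GENCODE M21 of the same build (53360 of 53465 identifiers found), and promoters from RefSeq (GRCm38.p6), in which all 10 members matched. Alternatives were TMM, library size only, DESeq2 1.42.0, limma-voom (limma 3.58.1), other filters, the replicate number as a block, other lengths and each library left out. A count of 3 over a line was taken as the floor. Replicates differed by more than sampling noise (chi-square per degree of freedom 5.06 to 19.4), and the biological coefficient of variation was 0.0595. The edgeR fit was tested on simulated counts with 200 changed genes. Far more genes were called in the data, so the simulation does not cover so wide a difference. Members and lists were chosen with earlier results of these data known. All members are named, and of each pathway list the 2 largest called changes in each direction with at least 5 CPM in the higher line, while Sema3c, Adamts3, Ccbe1, Epas1, Pfkfb4 and single markers and neighbors were chosen after their values were seen.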

Additional observations from a re-analysis of the deposited data

How the results depend on the processing

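Under TMM, library size only, DESeq2, limma-voom, other filters and each library left out, Vegfa, Vegfb, Vegfc, Pgf, Flt1 and Nrp1 kept their direction and passed the threshold wherever they were tested. Nrp2 did so except without P replicate 1 (log2 fold change -0.13). The log2 fold changes ranged from -3.51 to -3.41 for Flt1, from 0.90 to 1.04 for Vegfa and from -5.11 to -4.64 for Pgf, which was not tested when at least 10 counts in every library were required. When calls also needed a log2 fold change of 1 or more in size, 0 members were higher and 3 lower, namely Pgf, Flt1 and Nrp1. Of all genes 1083 were then higher and 640 lower. Without this requirement 2 members were higher, both at an unadjusted p under 0.05 by edgeR and by DESeq2. With at least 10 counts in every library, 2 genes of the semaphorin list were lower, since Sema3a and Sema3c were then not tested. The difference in the share of Nrp1 was -5.46 percentage points with the longest and -5.26 with the mean transcript length against -3.82, and that of Vegfd was 0.275 with the mean length against 0.45. Same-numbered P and AxR libraries did not deviate together (correlations -0.0213, -0.0061 and -0.0217), so no pairing by number was seen. These values cannot tell whether same-numbered libraries were handled together, and the labels give no pairing. With the replicate block, 4304 genes were higher and 4023 lower, against 4441 and 4167, and 2 members were higher and 5 lower, as without it. Vegfd was called higher as the third ligand without the filter on low counts and when any library but AxR replicate 3 was left out. In each of these it could be tested through its AxR counts alone. The depth limits Kdr, Flt4, Vegfd and the AxR level of Pgf, which rest on few or no counts.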

Other observations

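Of all genes tested with at least 5 CPM in the higher line, the 3 whose log2 CPM over the 6 libraries, relative to the P mean, lay nearest to that of Flt1 were Acsl6, an acyl-CoA synthetase, Plxna4, a plexin that works with neuropilins, and Vldlr, a lipoprotein receptor. Their root mean square distances from Flt1 were 0.135, 0.136 and 0.137 on the log2 scale, and they lie on chromosomes 11, 6 and 19. Acsl6 fell from 7.17 ± 0.812 to 0.633 ± 0.0653 CPM and Vldlr from 21.6 ± 1.22 to 1.79 ± 0.337 CPM (SD, n = 3 each). With 2 lines the likeness is mostly that of the fold change and is given as a description. Nearest to Pgf were Adam19, a metalloprotease (distance 0.213), Dll4, a Notch ligand known from endothelial tip cells (0.285), and Prss12, a serine protease (0.297). Their log2 fold changes, -4.14, -4.05 and -4.53, were smaller in size than that of Pgf, -4.94. The log2 CPM used for the distance had a prior count of 2 added, which shrinks the change of a gene with few counts. Pgf itself did not reach the 5 CPM required of the other genes. Dll4 had 6.87 ± 1.34 CPM in P and 0.417 ± 0.216 CPM in AxR cells (SD, n = 3 each). Of the 15 vascular endothelial markers, Egfl7, Cdh5, Pecam1, Mmrn2 and Tie1 also had lower means in AxR cells. Eng, Ecscr, Vwf, Esam, Plvap and Tek had higher means there, and 4 markers had no count. Of these markers Egfl7 and Eng alone had enough counts to be tested, and the means of the others rest on at most 9 counts in any library. The part of endothelial cells in the Dll4 level was not tested. Nearest to Nrp1 were Mcc, Procr, which encodes the endothelial protein C receptor, and Nt5dc2, with distances of 0.0864, 0.0878 and 0.0984. Procr had 53.7 ± 3.98 CPM in P and 25.7 ± 3.17 CPM in AxR cells (SD, n = 3 each).

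Markers of other cell types were mostly too low to test. Of 8 leukocyte markers Cd68 alone was tested, with 3.39 ± 0.291 CPM in P and 8.02 ± 0.111 CPM in AxR cells (SD, n = 3 each), and the summed level of the 8 was 3.53 to 3.98 CPM in P and 8.31 to 8.57 CPM in AxR libraries, with Adgre1, Tyrobp and Fcer1g at 0 counts. Of 9 fibroblast and pericyte markers Pdgfra alone was tested, with 22.6 ± 0.669 CPM in P and 10.1 ± 0.641 CPM in AxR cells (SD, n = 3 each), and the sum was 22.9 to 24.7 CPM in P and 10.9 to 12.4 CPM in AxR libraries. Of 5 lung epithelial markers Foxj1 alone was tested, and the sum of the 5 was 0.462 to 0.782 CPM in P and 3.81 to 3.89 CPM in AxR libraries, and Sftpc, Sftpa1 and Sftpb had at most 2 counts in a library. The part of such cells in the levels of the VEGF genes was not tested.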
